A study of Drosophila melanogaster with 4 samples.

Results

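Larval heads of the fruit fly Drosophila melanogaster gave a library labelled Glioma, which was compared gene by gene with a library labelled Control. The genes compared were those with at least 10 read counts in 1 or both of the libraries, 11410 of the 11880 genes listed, and these are called detected. Glioma larvae carried UAS-dEGFR[L], a construct of the epidermal growth factor receptor, and UAS-dp110[CAAX], a form of the catalytic subunit of the phosphoinositide 3-kinase PI3K that is tethered to the membrane. Both groups carried the driver repo-Gal4, the temperature-sensitive repressor tub-Gal80[ts] and the reporter UAS-myrRFP, a red fluorescent protein at the membrane, and Control larvae carried nothing else from the labels. Eggs were laid over 3 days at 25 °C, and induction lasted 5 days at 29 °C before dissection. Each group was 1 library, all libraries carry the same batch label, and the sources used here do not give the number of heads pooled.

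The driver repo is active in glia, whereas the RNA came from the whole larval head, so transcripts of glia stand among those of many other tissues. In flies, joint activation of the EGFR and PI3K pathways in glia makes these cells multiply, and this is a common model of glioma. A larva at this age also prepares for metamorphosis. Pulses of the steroid hormone ecdysone then switch on cascades of nuclear receptors, fill the salivary glands with glue that later fixes the pupa to its support, and start the remodelling of fat body, cuticle and imaginal discs.

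The Glioma library held 38826243 counts and the Control library 36932553. Counts were scaled with TMM factors of 0.909 for Glioma and 1.06 for Control, and CPM below is the library-scaled count after this step. A gene was called higher or lower in Glioma when the ratio was at least 2-fold and its 95% counting interval left out equality. By this rule 1152 genes were higher, 10.1% of those detected, and 663 were lower, 5.81%, together 15.9%. Since each group was a single library, no difference has a replicate check and no test was made. The intervals cover counting error only, so a call describes these libraries.

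Most genes differed little, and a small number differed by very much. The ratio lay within 1.5-fold for 67.4% of detected genes, and the median log2 ratio was 0.00. The middle portion, from the lower to the upper quartile, ran from -0.34 to 0.40 on the log2 scale. A 4-fold difference was passed by 315 higher and 192 lower genes, and a 16-fold difference by 18 higher and 38 lower genes. Scaling decides the balance of the calls. By total counts alone the median log2 ratio of all genes is -0.22, which left 883 genes higher and 1024 lower, so that 46.3% of calls were higher, against 63.5% with TMM. Genes that lay within that shift of the threshold therefore have no firm call. On the authors' FPKM the calls were 496 higher and 514 lower, and on their TPM 510 higher and 721 lower. A pseudocount of 1 was added there and no counting interval was used, so these calls differ from the others in more than scaling. At the limit of detection, the 100 genes whose higher count was 10 or 11 had a median log2 ratio of 0.08, and the 115 genes just under it, at 8 or 9, had 0.15.

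**Figure D1:**
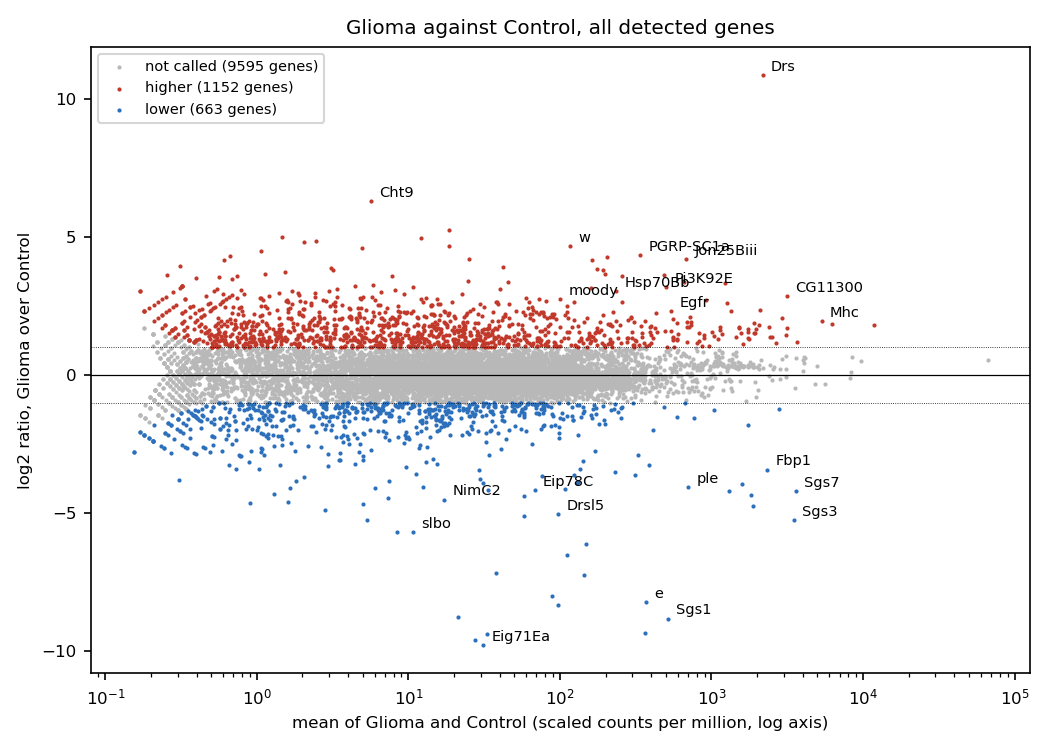
Log2 ratio of Glioma over Control (vertical axis) against the mean of both libraries in CPM (horizontal log axis) for the 11410 detected genes, with genes called higher in red and lower in blue. Drs stands alone at the top at 10.85, and a tail of abundant salivary genes runs down to -8.82 for Sgs1.

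Gene lists by tissue and function differed in the side on which their members lay. Of 80 gene lists, 33 had more members higher than lower and 25 had more lower than higher. These lists covered 2153 detected genes and 511 of the called ones. The extremes were the salivary glue list at a median log2 ratio of -4.35 and the Jonah protease list at 1.76 among the 19 lists plotted by member.

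**Figure D2:**
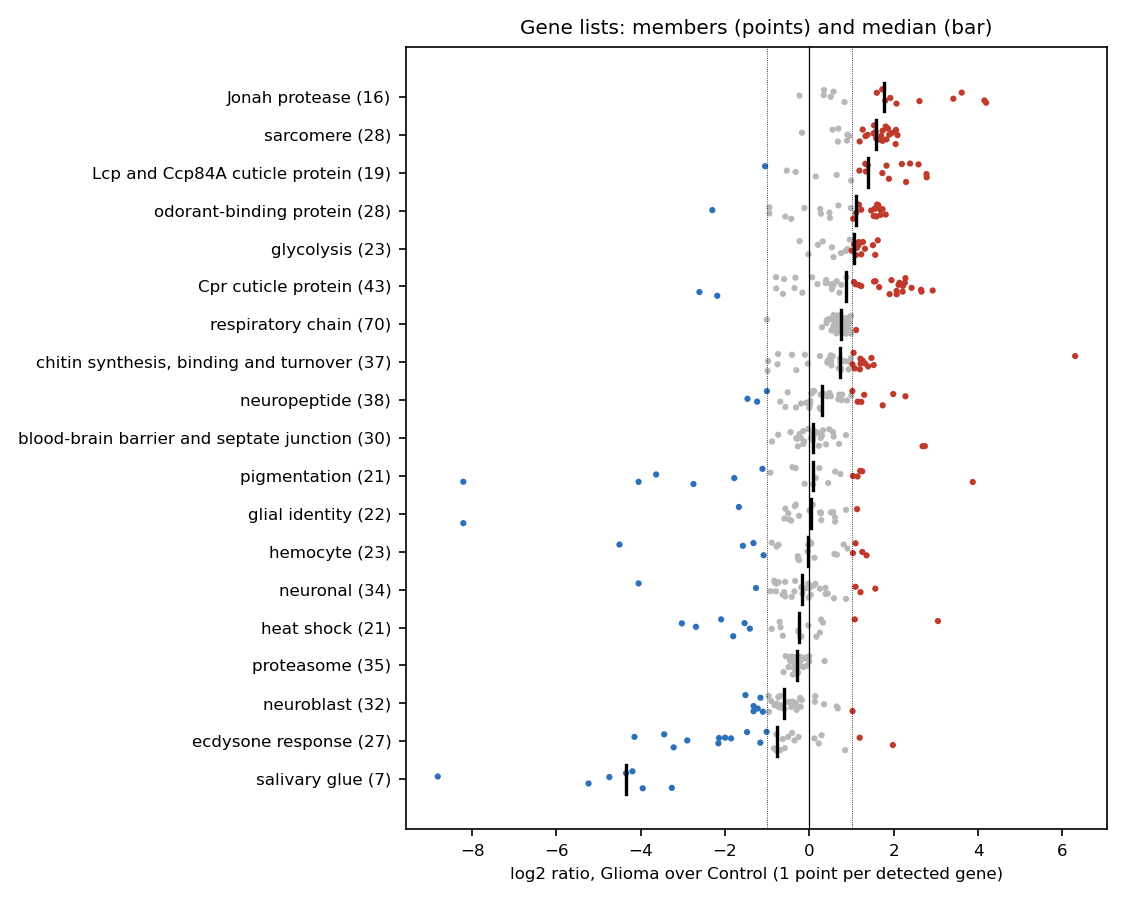
Log2 ratio of Glioma over Control for each detected member of 19 gene lists (points, red for called higher and blue for called lower), with the list median as a black bar and the number of members in brackets. Lists run from Jonah proteases at the top, median 1.76, to salivary glue genes at the bottom, median -4.35.

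Tissue markers gave a view of what the samples held. Levels per transcript length, in TPM as computed by the authors, were summed over marker genes of each tissue. Muscle markers summed to 17204 TPM in Glioma and 6299 TPM in Control, and all 8 were called higher. Salivary gland markers summed to 2275 TPM in Glioma and 58833 TPM in Control, and all 6 were called lower. Both tissues thus stood apart by more than the 2-fold rule in every marker. Fat body markers summed to 3641 TPM in Glioma and 8016 TPM in Control, with 2 of 6 called lower. Neuronal markers summed to 72.9 TPM in Glioma and 120 TPM in Control, neuroblast markers to 17.7 TPM in Glioma and 33.2 TPM in Control, and eye disc markers to 52.1 TPM in Glioma and 83.7 TPM in Control. Of these 21 genes the neuronal fne was the 1 called, lower. Midgut markers summed to 10046 TPM in Glioma and 9600 TPM in Control, with 3 of 7 called higher. Of these sums Jon65Aiii alone gave 6941 TPM in Glioma and 6822 TPM in Control. Epidermal markers summed to 43946 TPM in Glioma and 42760 TPM in Control, with 1 of 5 called higher and 1 lower. Transcripts of muscle, gut and epidermis were thus abundant in both samples, beside those of the brain. Glial markers, 12 genes, summed to 573 TPM in Glioma and 947 TPM in Control, with 3 called higher and 2 lower, and e alone gave 0.856 TPM in Glioma and 318 TPM in Control. In such bulk samples fewer cells of a type and less RNA per cell cannot be told apart. The part of tissue content in the differences below was not tested.

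**Figure D3:**
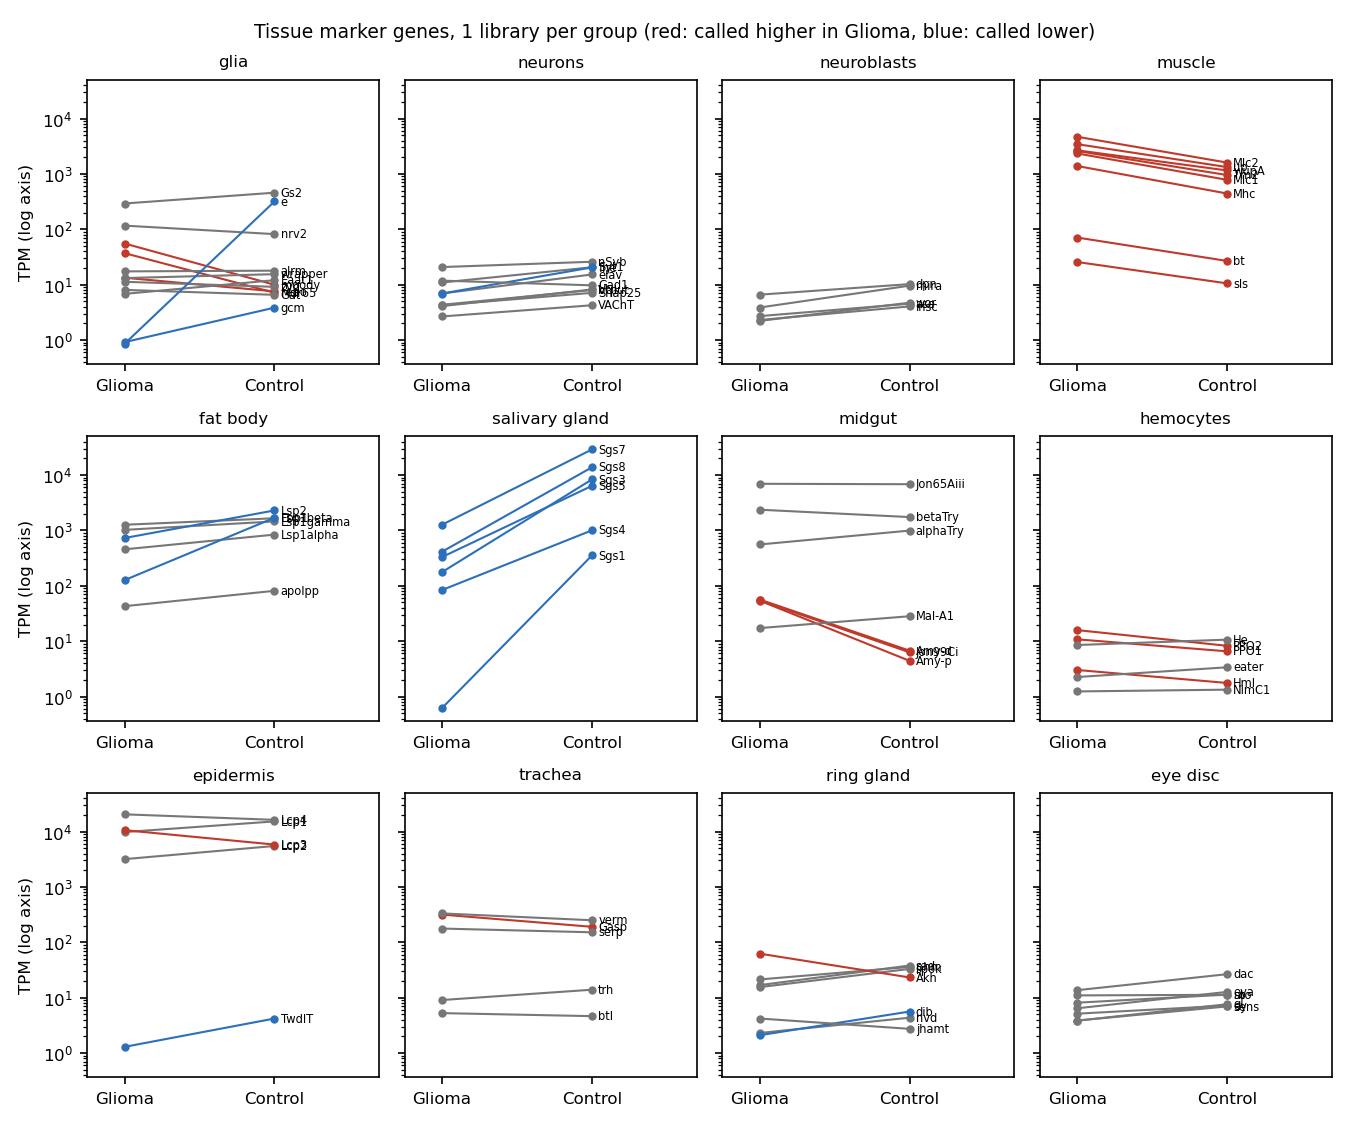
Level in TPM (log axis) of marker genes of 12 tissues in the Glioma library (left point of each line) and the Control library (right point). All 8 muscle markers and all 6 salivary gland markers lay on the same side, while glial markers split.

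Both genes named by the constructs were higher. Egfr had 31685 counts in Glioma, against 7132 in Control, a log2 ratio of 2.30 (95% counting interval 2.27 to 2.34). Pi3K92E, the gene of the p110 subunit, had 31882 counts in Glioma, against 3872 in Control, a log2 ratio of 3.20 (3.15 to 3.24), or 9.16-fold. Transcripts of the constructs and of the native genes share these rows, so their parts cannot be separated. The glial transcription factor gene repo, whose enhancer drives Gal4, had 1293 counts in Glioma and 656 in Control, a log2 ratio of 1.13 with an interval from 1.00 to 1.27, so it lies at the threshold. The eye colour gene w, which inserted constructs often carry as a marker, had 7892 counts in Glioma, against 344 in Control, a log2 ratio of 4.67. The body colour gene y, another construct marker, had 205 counts in Glioma, against 15 in Control, a log2 ratio of 3.88.

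In the EGFR, Ras and MAPK list of 26 genes, Egfr was the 1 member called higher and aop, a repressor that the pathway inactivates, the 1 called lower. Each direction thus held 3.85% of the list, beside 10.1% higher and 5.81% lower over all detected genes. The aop gene had 1911 counts in Glioma and 4741 in Control, a log2 ratio of -1.16. Among the other members named, the ligand genes spi and grk had log2 ratios of 0.18 and 0.70, the adaptor drk -0.55 and the feedback phosphatase Mkp3 0.48. In the PI3K, insulin and TOR list of 26 genes, Pi3K92E was the 1 member called higher. Sesn, a stress-induced inhibitor of TOR, and Ilp6, an insulin-like peptide made in fat body, were lower at -1.67 and -1.60, which makes 3.85% higher and 7.69% lower. The insulin receptor gene InR stood at -0.51, and Thor, a translation inhibitor that insulin signalling represses, at 0.42.

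Glue genes of the salivary gland, among the most abundant transcripts of Control, were lower by far. All 7 Sgs genes were lower, and together they took 0.102% of counts in Glioma, against 2.71% in Control. Sgs1, a high-molecular-weight glue mucin, had 80 counts in Glioma and 40355 in Control, a log2 ratio of -8.82 (-9.16 to -8.51). Sgs3, Sgs7 and Sgs8 lie side by side on chromosome arm 3L, between 11508967 and 11513402 in dm6 coordinates. Sgs3 had 6351 counts in Glioma, against 266901 in Control (-5.24), Sgs7 had 13162 in Glioma against 268517 in Control (-4.20), and Sgs8 had 4793 in Glioma against 142999 in Control (-4.75). Their neighbour CG7512, a clone-numbered gene, was called lower as well at -1.26, on 20 counts in Glioma and 54 in Control. Of the 7, Sgs4 differed least, at -3.26.

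The Eig71E genes, ecdysone-induced genes whose small secreted products the salivary gland makes, were all called lower. Eig71Ea had 2 counts in Glioma, against 2433 in Control, a log2 ratio of -9.77 with a wide interval, -13.14 to -8.24. A gene with no count in 1 or more of the 4 libraries is not listed, so genes silenced completely are not analysed here. Eig71Eb had 3 counts in Glioma and 1671 in Control (-8.74, -11.25 to -7.42). Eig71Ee, the abundant member, had 4706 counts in Glioma, against 96549 in Control (-4.20), a ratio like that of Sgs7. These genes and the clone-numbered CG43083 and CG43084 form an unbroken run of 5 detected genes called lower, on 3L from 15648571 to 15656010. Another family of the same gland did not share the drop. The new glue genes ng1, ng2 and ng3 stood at log2 ratios of 0.60, 1.05 and 0.17, and ng3 had 31169 counts in Glioma and 30890 in Control. Of the regulators, sage, a salivary gland transcription factor, was lower with 1096 counts in Glioma and 4696 in Control (-1.95), while CrebA, which drives secretory capacity, stood at -0.75 and fkh, which keeps the gland's identity, at 0.43. Sgs genes are close copies in part, so the division of reads among them is uncertain.

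Genes of the ecdysone response leaned the same way. Of 27 detected members 11 were lower (40.7%) and 2 higher (7.41%), beside 5.81% and 10.1% over all detected genes. The median log2 ratio was -0.78, beside 0.00 over all genes. Lower calls fell on 6 of 12 nuclear factors, 5 of 11 targets and none of the 4 genes of the receptor and of hormone import. Eip78C, a nuclear receptor, had 256 counts in Glioma and 5060 in Control, a log2 ratio of -4.15 (-4.34 to -3.97). Hr3, a receptor that represses early genes, had 174 counts in Glioma, against 2112 in Control (-3.44), and its relative Hr4 had 286 in Glioma against 2373 in Control (-2.90). Eip93F, a transcription factor of metamorphic fate, had 105 counts in Glioma, against 1093 in Control (-3.22), and Blimp-1, a repressor that times pupation, 328 in Glioma against 1614 in Control (-2.14). The imaginal disc targets ImpE2 and ImpE3 stood at -1.998 and -2.16. The other lower members were Hr39, MsrA, E23 and ImpE1, between -1.86 and -1.02, named after their values were seen.

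EcR, usp and the early genes were not called, but they lay below 0. On total counts the median of the ecdysone response list was -1.005, so calls near the threshold depend on the scaling. The receptor genes EcR and usp stood at -0.51 and -0.35 and the early genes br, Eip74EF and Eip75B at -0.78, -0.78 and -0.68, all but br named after their values were seen. So were the members called higher, Hr38, a nuclear receptor, at 1.98, and Cyp18a1, the enzyme that inactivates ecdysone, with 986 counts in Glioma and 479 in Control (1.19). Another receptor, ftz-f1, which acts after the hormone pulse has passed, had 1229 counts in Glioma and 759 in Control (0.85, not called).

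Ecdysone synthesis genes, active in the ring gland, had 1 of 13 members called, a share of 7.69% lower beside 5.81% over all detected genes. It was dib at -1.09 on 135 counts in Glioma and 321 in Control. Its partners spok, sad and sro stood at -0.77, -0.86 and -0.88, phm at -0.43, and ouib, a regulator of this pathway, at 0.15. The gene of the tropic peptide Ptth had 51 counts in Glioma and 56 in Control. In the juvenile hormone list, 3 of 12 genes were higher (25%) and 1 lower (8.33%), beside 10.1% and 5.81% over all detected genes. Jhedup, a relative of the hormone's esterase, was at 8 counts in Glioma and 133 in Control (-3.82, -5.14 to -2.88), while the epoxide hydrolase Jheh3 stood at 1.05 and the inducible gene JhI-26 at 1.27.

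Storage protein genes of the fat body, which larvae fill before pupation, were lower in 3 of 9 (33.3%) and higher in none. Over all detected genes 5.81% were lower and 10.1% higher. Fbp1, the receptor by which fat body takes up storage protein, had 13958 counts in Glioma, against 166629 in Control, a log2 ratio of -3.42. Fbp2 and Lsp2 were lower at -1.53 and -1.24. The hexamerin genes Lsp1alpha, Lsp1beta and Lsp1gamma, in contrast, were at -0.57, -0.07 and -0.19. All 9 genes took 0.844% of counts in Glioma, against 1.83% in Control. In the lipid list of 16 genes, the fatty acid synthase gene FASN2 was higher with 2516 counts in Glioma and 599 in Control (2.22), and the lipid droplet protein gene Lsd-1 was lower at -1.06.

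The pathway that makes dark and tanned cuticle split by step. Tyrosine is turned into dopamine by ple and Ddc, with a cofactor that depends on Pu, and dopamine is joined by e to beta-alanine, which b supplies. The e gene had 87 counts in Glioma, against 28819 in Control, a log2 ratio of -8.21 (-8.54 to -7.91), or 296-fold lower. The ple gene had 2828 counts in Glioma, against 52161 in Control (-4.05), b had 651 in Glioma against 9004 in Control (-3.64), and Pu had 1557 in Glioma against 11654 in Control (-2.75). Ddc stood at -0.93, just short of the threshold, and t, whose product reverses the step of e, stood at 0.74 (t named after its values were seen). Of 21 pigmentation genes 6 were lower (28.6%) and 5 higher (23.8%), beside 5.81% and 10.1% over all detected genes. The prophenoloxidase genes PPO1 and PPO2, of blood crystal cells, were higher at 1.03 and 1.26, y stood at 3.88, and yellow-e2 and yellow-f2, of the same family as y, were higher at 1.21 and 1.14. The related yellow-c and yellow-f were lower at -1.78 and -1.11. Of these, PPO1, yellow-e2, yellow-f2 and yellow-f are named after their values were seen. Both ple and e also stand in lists of the nervous system, so their values say nothing of neurons or glia alone.

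**Figure D4:**
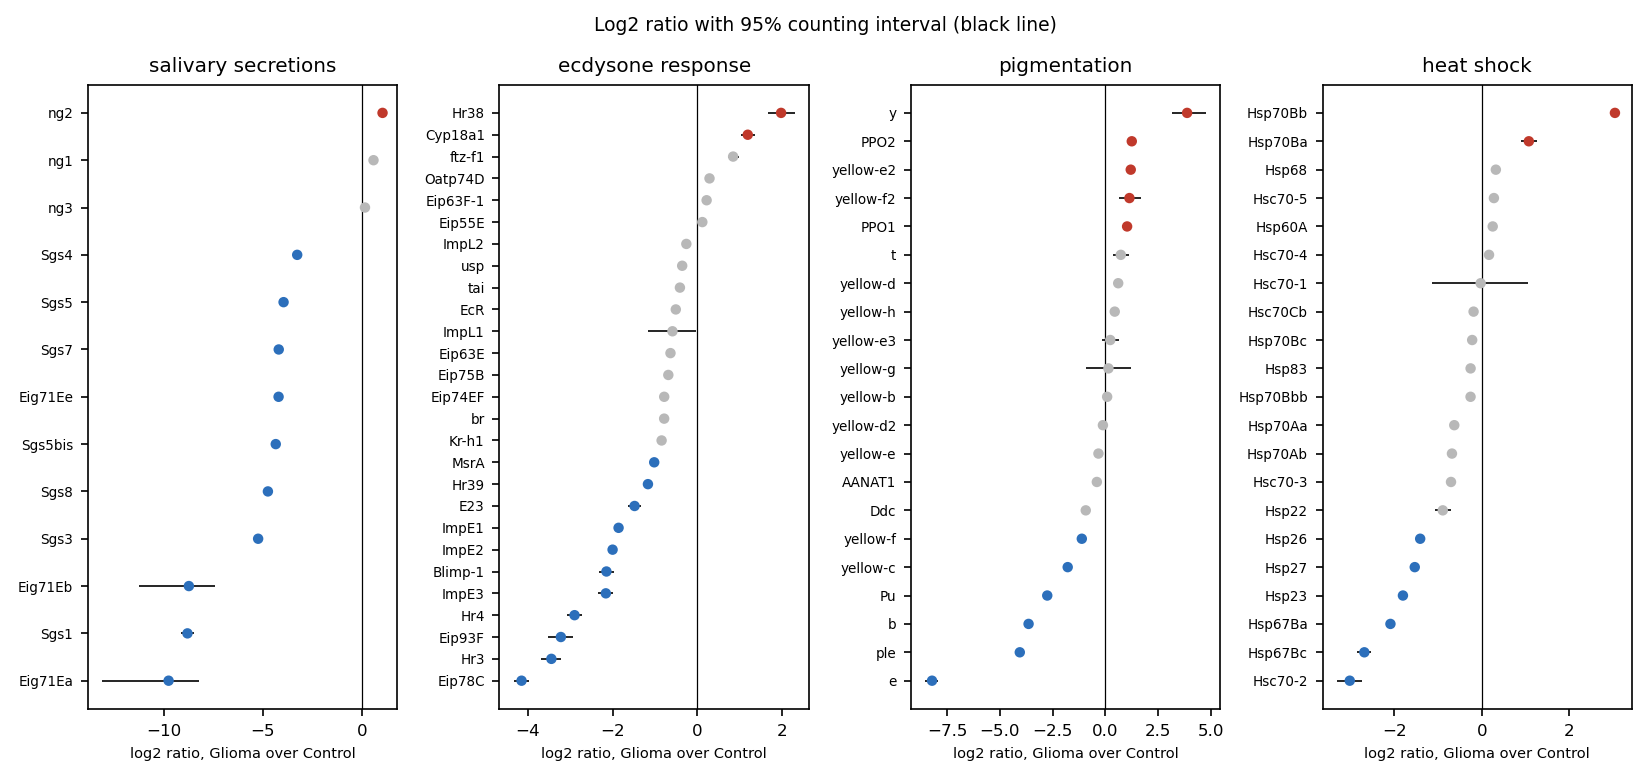
Log2 ratio of Glioma over Control (horizontal axis) with its 95% counting interval for salivary secretion, ecdysone response, pigmentation and heat shock genes, red where called higher and blue where called lower. Within each panel the genes range widely, from -9.77 for Eig71Ea to 1.05 for ng2 in the salivary panel and from -8.21 for e to 3.88 for y in the pigmentation panel.

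Muscle genes were higher as a block, and many of them are abundant. Of 28 sarcomere genes 21 were higher (75%) and none lower, beside 10.1% and 5.81% over all detected genes. Their median log2 ratio was 1.58, and 27 of them lay above 0. They took 6.77% of counts in Glioma, against 2.48% in Control. All 5 thick filament genes were higher. The myosin heavy chain gene Mhc had 300028 counts in Glioma, against 85669 in Control (1.96), and the light chain genes Mlc2 and Mlc1 stood at 1.86 and 1.90. Act57B, the main actin of larval muscle, had 645616 counts in Glioma, against 204679 in Control (1.81). No other gene of the nuclear genome had more counts in Glioma. The calcium sensor genes TpnC47D and TpnC25D stood at 2.05 and 2.06, and Unc-89, the obscurin gene, at 2.09. By contrast tmod, which caps thin filaments, stood at -0.18 (named after its values were seen).

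Calcium handling genes went with the filaments. SERCA, the pump of the sarcoplasmic reticulum, had 93499 counts in Glioma, against 32975 in Control (1.66), and RyR, the release channel, 4537 in Glioma against 1481 in Control (1.77). The pump's inhibitory peptide genes SclA and SclB stood at 1.35 and 1.65. Genes of muscle attachment, where 1 of 8 was called higher (12.5%, beside 10.1% over all detected genes), had a median of 0.43. There the integrin gene if stood at 1.03.

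Genes of energy metabolism lay mostly above 0, and most of those called were in glycolysis. Of 23 genes of glycolysis and its branches 13 were higher (56.5%) and none lower, beside 10.1% and 5.81% over all detected genes. Their median was 1.06, and they took 1.24% of counts in Glioma, against 0.691% in Control. GlyP, which breaks down glycogen, had 60964 counts in Glioma, against 22007 in Control (1.62). Ldh, which makes lactate, had 18067 in Glioma against 7063 in Control (1.51), and PyK, the last step of glycolysis, 28000 in Glioma against 12906 in Control (1.27). All 18 genes of the tricarboxylic acid cycle lay above 0, with a median of 0.79. Of these 2 (11.1%, beside 10.1% over all detected genes) were called higher, Mdh2 at 1.09 and CG5028, which RefSeq names Idh3g, at 1.32. The genes of complex II stand both in this list and in that of the respiratory chain.

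Nuclear genes of the respiratory chain had a narrow spread. Of 70 genes, 69 lay above 0, with a median log2 ratio of 0.74, and only ND-75, a complex I subunit, passed the rule, with 10410 counts in Glioma and 5368 in Control (1.11). The medians of complexes I to V were close together, between 0.71 for complex I and 0.90 for complex III. ATPsynepsilonL, at 10 counts in Glioma and 23 in Control, was the member below 0. On total counts the list's median was 0.52, on the authors' FPKM 0.51 and on their TPM 0.44, so its sign held, and the size depends on the scaling.

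Transcripts of the mitochondrial genome did not follow this pattern. The large ribosomal RNA, lrRNA, took 7.14% of counts in Glioma, against 5.75% in Control (0.54). Among the messengers COX1, COX3 and CYTB stood at -0.09, -0.31 and -0.54. Higher calls fell on ND2, with 2138 counts in Glioma and 483 in Control (2.30), ATP8, with 3693 in Glioma against 876 in Control (2.23), ND6, with 104 in Glioma against 19 in Control (2.57), and the transfer RNA trnL2. Neighbouring genes of this genome overlap or share precursors, so their reads may be divided unevenly.

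Protein synthesis and breakdown genes stayed close to all genes. The 88 cytoplasmic ribosomal protein genes had a median of 0.34 with none higher and 2 lower, RpS19b and RpL22-like, both under 50 counts in each library (chosen after their values were seen), and 85 of them lay above 0. Proteasome genes lay on the other side, with 2 of 35 above 0, a median of -0.29 and none called. Initiation factors and tRNA synthetases had no call in 36 and 32 genes.

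Most genes of the Cpr list (34 of 43) and of the Lcp and Ccp84A list (16 of 19) of cuticle proteins lay above 0. Of 43 Cpr genes 21 were higher (48.8%) and 2 lower (4.65%), median 0.88. Of 19 Lcp and Ccp84A genes 13 were higher (68.4%) and 1 lower (5.26%), median 1.39. The shares over all detected genes were 10.1% higher and 5.81% lower. Cpr31A had 1410 counts in Glioma, against 206 in Control (2.93), Cpr47Eg 15644 in Glioma against 2771 in Control (2.65), and Cpr65Ay 2322 in Glioma against 408 in Control (2.66). The most abundant larval cuticle genes differed less. Lcp4 had 364873 counts in Glioma and 259120 in Control (0.65), Lcp1 had 175553 in Glioma and 244676 in Control (-0.33), and Lcp3 had 179158 in Glioma and 87483 in Control (1.19). Summed over the Cpr list, the share of counts was 0.484% in Glioma and 0.488% in Control, and the abundant members Cpr49Ac and Cpr78E stood at -0.79 and -0.63. The 2 lower members were Cpr35B at -2.61, on 4 counts in Glioma and 30 in Control, and Cpr47Ee at -2.18, named after its values were seen.

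The cuticle genes at 65A show the pattern at close range. On 3L between 6123934 and 6139974, 9 neighbouring detected genes in a row were higher, among them Lcp65Ag1 with 3667 counts in Glioma and 594 in Control (2.78). A further row of 6 higher genes runs from 6146674 to 6158630, with Lcp65Ab1 at 128113 counts in Glioma and 54525 in Control (1.39). Between these rows lie, named after their values were seen, Cpr65Aw at 0.65, Lcp65Ac at 0.99 and Lcp65Ad, called lower at -1.05 on 64 counts in Glioma and 148 in Control. Genes in this cluster are close copies, and the division of reads among them is uncertain.

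**Figure D5:**
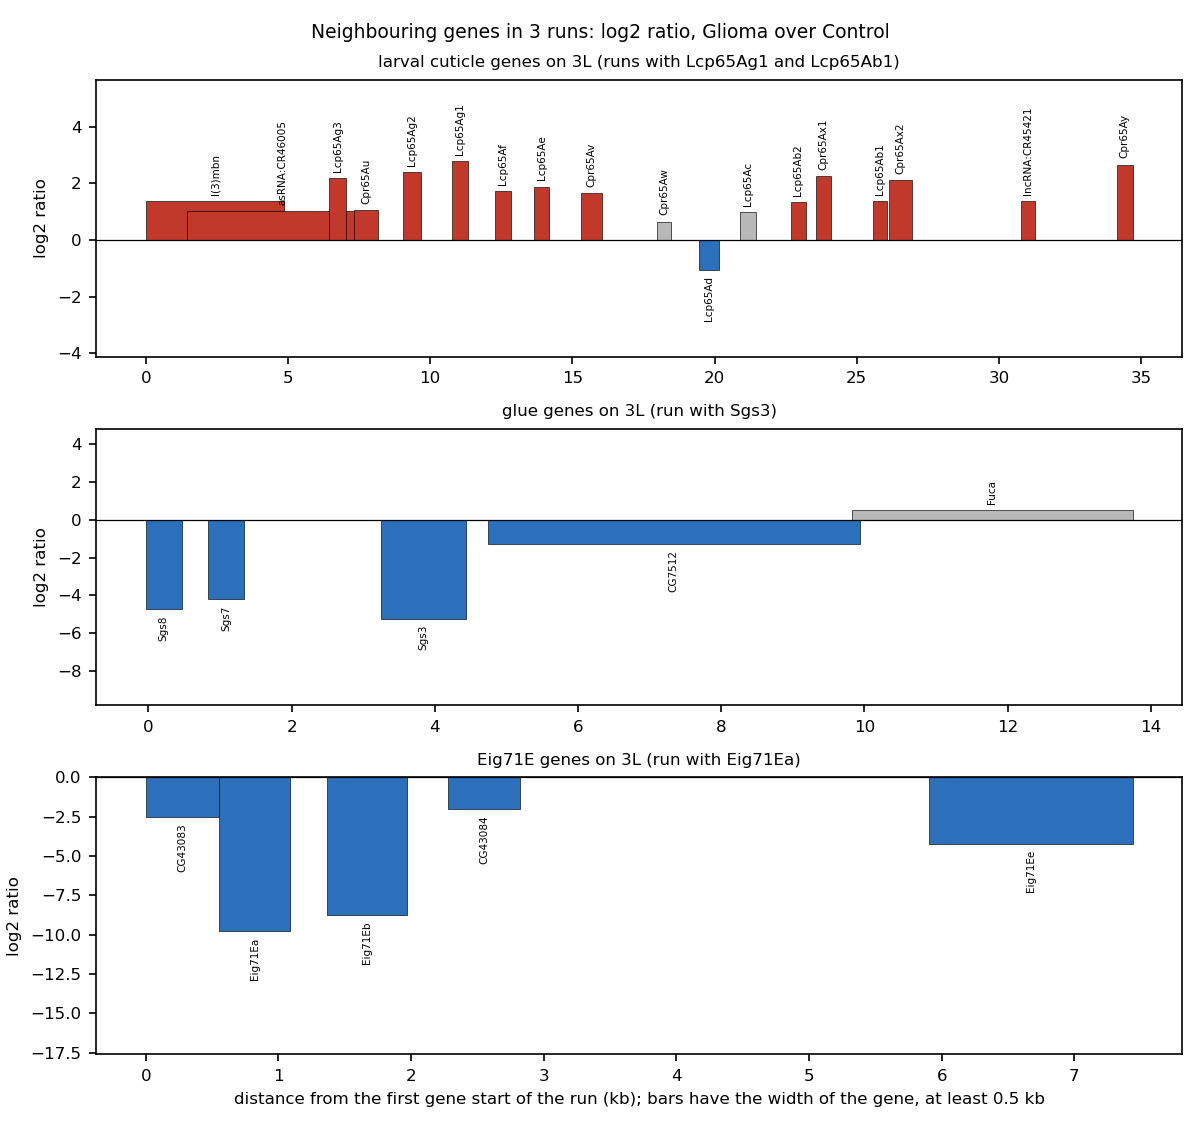
Log2 ratio of Glioma over Control for neighbouring detected genes in the 65A cuticle cluster, the Sgs3 glue cluster and the Eig71E cluster, by distance in kb from the start of each run (bars, red for called higher, blue for lower, grey for not called). All genes of the Eig71E run and the 3 glue genes lie below -2, while the cuticle cluster is interrupted by Lcp65Ad at -1.05.

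Chitin genes were higher in 12 of 37 (32.4%) and lower in none, median 0.73. The shares over all detected genes were 10.1% higher and 5.81% lower. All 14 chitin-binding genes lay above 0, with 7 higher (50%). The gut-lining gene Peritrophin-15a had 74697 counts in Glioma, against 31600 in Control (1.39), and obst-E, a chitin-binding protein of the cuticle, 8112 in Glioma against 3132 in Control (1.53). Cht9, a chitinase gene, had 395 counts in Glioma, against 5 in Control, a log2 ratio of 6.31 (5.22 to 8.09). Tweedle cuticle genes split, with 4 higher (44.4%) and 3 lower (33.3%) of 9, from 2.54 for Twdlalpha to -3.68 for TwdlE.

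Odorant-binding protein genes, small carriers of sensory and other tissues, were higher in 15 of 28 (53.6%) and lower in 1 (3.57%). The shares over all detected genes were 10.1% higher and 5.81% lower. Obp58c had 695 counts in Glioma, against 220 in Control (1.81), and Obp83g 1789 in Glioma against 618 in Control (1.69). Obp83ef, at 47 counts in Glioma and 260 in Control (-2.30), was the member called lower. Their summed share was 0.297% of counts in Glioma and 0.505% in Control. The abundant members lay below 0, Obp99b with 40576 counts in Glioma and 87055 in Control (-0.95), Obp44a at -0.57 and Obp56d at -0.43. Of 12 ionotropic receptor genes 4 were higher (33.3%) and 1 lower (8.33%). Among genes of any kind with a mean of 1 to 10 CPM 15.1% were higher and 9.58% lower. Under 1 CPM these shares were 21.5% and 12.0%. The co-receptor genes Ir25a and Ir76b stood at 1.51 and 1.35, on 103 and 49 counts in Glioma, against 40 and 21 in Control. Ir76a and Ir21a were higher at 1.49 and 1.10, and Ir85a was lower at -2.33 on 3 counts in Glioma and 19 in Control (-4.91 to -0.75).

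Digestive enzymes of the midgut split by family. Of 16 Jonah genes, which encode serine proteases of the larval gut, 10 were higher (62.5%) and none lower, median 1.76. The shares over all detected genes were 10.1% higher and 5.81% lower. Jon25Biii had 45426 counts in Glioma, against 2760 in Control (4.19), Jon44E 10931 in Glioma against 683 in Control (4.15), and Jon66Cii 31777 in Glioma against 2886 in Control (3.61). Here too the most abundant members differed little, with Jon65Aiv at 402354 counts in Glioma and 315234 in Control (0.51). None of 10 trypsin genes was called. The amylase genes Amy-p and Amy-d stood at 3.92 and 3.38, and Amy-p had 2781 counts in Glioma and 204 in Control. Maltase genes ranged from 2.07 for Mal-B1 to -1.89 for Mal-A7. Of 7 lysozyme genes 4 were lower (57.1%), among them LysX at -2.36, LysP at -2.28 and LysC at -2.03, and 1 higher (14.3%), LysS at 1.06. The abundant members LysS and LysB (0.43) lay above 0, and the family took 0.0212% of counts in Glioma, against 0.0189% in Control. Reads of the Jonah, amylase and lysozyme families may be split unevenly, since many members are near-identical.

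Mucin genes, of the gut lining and other surfaces, split as well. Muc68E had 116 counts in Glioma, against 4433 in Control (-5.10). Muc96D, with the most counts of the 15 mucins, had 129409 in Glioma against 65049 in Control (1.15). Mur29B was lower at -1.16, and Muc26B, Muc14A and Muc30E were higher at 1.06, 1.42 and 1.87.

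Antimicrobial peptide genes were called in both directions. Drs, which encodes the antifungal drosomycin, had 153512 counts in Glioma, against 92 in Control, a log2 ratio of 10.85 (10.56 to 11.17), or 1845-fold, the largest ratio measured among detected genes. Of 13 detected peptide genes 8 were higher (61.5%) and 4 lower (30.8%), beside 10.1% and 5.81% over all detected genes. The attacin and diptericin genes AttC, AttA, AttB, DptB and DptA, active against Gram-negative bacteria, stood between 1.23 and 2.93, with DptA at 2512 counts in Glioma and 1190 in Control. The attacin gene AttD lay on the other side, with 67 counts in Glioma and 149 in Control (-0.99, not called). Drsl5, a relative of Drs, was lower with 204 counts in Glioma and 7454 in Control (-5.03), and Mtk, another antifungal peptide gene, had 2 counts in Glioma, against 68 in Control (-4.62, -8.01 to -3.03). The cecropin gene CecC was lower at -1.05 and Drsl1 at -2.39, on 2 counts in Glioma and 14 in Control (-5.83 to -0.53).

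Most detected Bomanin and related genes, secreted targets of the Toll pathway, were higher. Of 11 such genes listed, 3 were below the count minimum, and IM33 held 2495 of the list's 2873 counts in Glioma. Of 8 detected Bomanin and related genes 6 were higher (75%) and none lower, beside 10.1% and 5.81% over all detected genes. BomS3 had 37 counts in Glioma and 3 in Control (3.55, 2.12 to 6.12), and IM33 2495 in Glioma against 625 in Control (2.15). The genes of the Toll and Imd pathways themselves, 13 and 8 in number, had no call. PGRP-SC1a and PGRP-SC1b, near-identical genes of enzymes that degrade bacterial peptidoglycan, had 22805 and 13765 counts in Glioma, against 1258 and 784 in Control (4.33 and 4.29). The stress gene TotA was lower, with 2215 counts in Glioma and 6941 in Control (-1.49).

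Blood cell genes split, with 4 higher and 4 lower of 23. Each direction held 17.4% of the list, beside 10.1% higher and 5.81% lower over all detected genes. NimC2, a phagocytosis receptor of the Nimrod family, had 51 counts in Glioma, against 1300 in Control (-4.50), and NimC3, NimA and NimB5 were lower at -1.58, -1.33 and -1.09 (NimB5 named after its values were seen). Hml, a hemolectin of plasmatocytes, had 1149 counts in Glioma, against 598 in Control (1.10), and the scavenger receptor gene Sr-CI stood at 1.36. Summed levels of 6 hemocyte markers were 41.7 TPM in Glioma and 32.0 TPM in Control, and the part of blood cell content in the immune differences was not tested.

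Of 22 glial identity genes 1 was higher, repo, and 2 were lower, e and gcm. These are shares of 4.55% and 9.09%, beside 10.1% and 5.81% over all detected genes. The fate gene gcm had 62 counts in Glioma, against 221 in Control (-1.67). Gs2, the glutamine synthetase of astrocytes, stood at -0.32, the transporter gene Gat at 0.61 and nrv2, a sodium pump subunit, at 0.87. At the blood-brain barrier, moody, a receptor that keeps the barrier tight, had 6135 counts in Glioma, against 1021 in Control (2.74), and Mdr65, an efflux pump of the same cells, 4959 in Glioma against 857 in Control (2.69). They were the only members called (6.67%) of 30 genes of the barrier and its septate junctions, with none among the 22 junction genes. The gap junction genes Inx2 and ogre stood at -0.89 and -0.74. Neighbours of Mdr65, with CG10226 among them, form a run of 4 higher genes on 3L from 6232469 to 6245746.

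Of 32 neuroblast genes 6 were lower (18.75%) and 1 higher (3.125%), with a median of -0.61. Over all detected genes 5.81% were lower and 10.1% higher. All 16 genes of identity and asymmetric division lay below 0, while 6 of the 16 temporal genes lay above it. The fate determinant gene pros had 2510 counts in Glioma, against 7988 in Control (-1.52), brat, which limits self-renewal, 4850 in Glioma against 13491 in Control (-1.32), and Syp, a late temporal factor, 10644 in Glioma against 26471 in Control (-1.16). The 1 member higher was slp1 at 1.02 (named after its values were seen). On total counts the median was -0.84.

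Of 34 neuronal genes 3 were higher (8.82%) and 2 lower (5.88%), close to the shares over all detected genes, and ple had the lowest ratio. With TMM 12 of the 34 lay above 0. On total counts 1 was higher and 7 were lower, where all detected genes had 7.74% higher and 8.97% lower. The list's median was -0.18 with TMM and -0.40 on total counts, so the balance of its calls depends on the scaling. The RNA-binding protein genes fne and Rbp9 stood on opposite sides, fne with 1627 counts in Glioma and 4356 in Control (-1.27) and Rbp9 with 6048 in Glioma against 2274 in Control (1.56). The serotonin transporter gene SerT was higher at 1.21 and Tdc2, of octopamine synthesis, at 1.10. Of 38 neuropeptide genes 7 were higher (18.4%) and 3 lower (7.89%), beside 10.1% and 5.81% over all detected genes. Nplp2 had 6492 counts in Glioma, against 1487 in Control (2.28), Nplp4 15943 in Glioma against 4463 in Control (1.99), Akh, the glucagon-like hormone of the corpora cardiaca, 1082 in Glioma against 360 in Control (1.74), and Crz, the corazonin gene, 641 in Glioma against 289 in Control (1.30). AstCC and CNMa were lower at -1.24 and -1.47, CNMa on 13 counts in Glioma and 41 in Control, and CCHa2, named after its values were seen, at -1.01.

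The Wnt, Notch, apoptosis and eye disc lists had medians below 0. In the Wnt list of 20 genes, 4 were lower, a share of 20% beside 5.81% over all detected genes, and none higher, with a median of -0.56. Among them wg had 472 counts in Glioma, against 1262 in Control (-1.26), Wnt4 424 in Glioma against 1064 in Control (-1.17), and Notum, an inhibitor that the pathway induces, 170 in Glioma against 380 in Control (-1.005). The 20 Notch genes had 2 lower members (10%, beside 5.81% over all detected genes) and no higher ones, at a median of -0.42. The lower members were the ligand gene Dl at -1.11 and the target gene E(spl)m5-HLH at -1.51, while Notch itself, N, stood at -0.81. Apoptosis genes had 3 lower of 11 (27.3%), with the death inducers hid at -1.54 and skl at -1.03 and the caspase gene Dronc at -1.39. The 17 eye disc genes, which had no call, had a median of -0.47.

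DNA replication and cell cycle genes stayed near 0. None of 39 DNA replication genes was called, and their median was -0.0022. Of 24 cell cycle genes CycE was the 1 called, lower at -1.04 (named after its values were seen), and the median was -0.16. None of 13 Hippo genes was called, but their median was -0.35 and 3 of them lay above 0. In the JAK-STAT list, 2 cytokine genes were higher, upd2 at 68 counts in Glioma and 13 in Control (2.49, 1.67 to 3.52) and upd3 at 77 in Glioma against 28 in Control (1.59, 0.97 to 2.29), whereas upd1 had 209 in Glioma and 217 in Control. Its feedback target Socs36E stood at 0.06. In the JNK list, Ets21C, a transcription factor gene, had 372 counts in Glioma, against 122 in Control (1.76), and Timp, an inhibitor of matrix metalloproteases, 1780 in Glioma against 855 in Control (1.21). The metalloprotease genes Mmp1 and Mmp2 stood at -0.67 and -0.995 without a call, and puc, a feedback gene of JNK, at 0.07.

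Basement membrane genes had 2 higher (14.3%, beside 10.1% over all detected genes) and none lower of 14. Ndg, the nidogen gene, had 5368 counts in Glioma, against 1472 in Control (2.02), and the collagen IV gene vkg 3595 in Glioma against 1888 in Control (1.08), with its partner Col4a1 at 0.76. Of 10 metallothionein, transferrin and ferritin genes 3 were higher (30%) and none lower, and 5 lay above 0, with a median of 0.05. Iron carrier gene Tsf1 had 25011 counts in Glioma, against 5903 in Control (2.24), and the metallothionein genes MtnA and MtnB stood at 1.16 and 2.70. MtnD and MtnE lay below Control, at 15.4 and 16.3 CPM in Glioma, against 17.6 and 25.6 in Control. The ferritin genes Fer1HCH and Fer2LCH did too, at 598 and 599 CPM in Glioma, against 684 and 612 in Control.

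Heat shock genes split, with 2 higher (9.52%) and 6 lower (28.6%) of 21, beside 10.1% and 5.81% over all detected genes. Several small heat shock protein genes were lower, Hsp23 with 27474 counts in Glioma and 106909 in Control (-1.81), Hsp27 with 13899 in Glioma and 44830 in Control (-1.54), and Hsp67Ba with 1313 in Glioma and 6232 in Control (-2.09). Among Hsp70 copies Hsp70Ba and Hsp70Bb were called, with Hsp70Ba at 1.08 (named after its values were seen). Hsp70Bb had 14733 counts in Glioma, against 1978 in Control (3.05), while the stable chaperone genes Hsp83 and Hsc70-4 stood at -0.26 and 0.17. Hsp70 copies are nearly identical, so the value of a single copy is uncertain. Both groups were kept at the same raised temperature.

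Among detoxification genes, 24 of 76 cytochrome P450 genes were higher (31.58%) and 4 lower (5.26%), beside 10.1% higher and 5.81% lower over all detected genes. Of 35 glutathione transferase genes 10 were higher (28.6%) and 1 lower, and of 25 UDP-glycosyltransferase genes 9 were higher (36.0%) and 3 lower. The lower P450 genes, named after their values were seen, were Cyp6g1, Cyp12d1-d, Cyp9b2 and Cyp304a1, from -1.80 to -1.06. Cyp4g1, an abundant enzyme of the oenocytes that makes cuticle hydrocarbons, had 22856 counts in Glioma, against 7786 in Control (1.71), and Cyp313a3 981 in Glioma against 181 in Control (2.59). GstE6 and GstD3 stood at 1.80 and 1.77. Ugt37A3 went the other way, with 145 counts in Glioma and 2185 in Control (-3.76), as did Ugt37A2 at -2.01, Ugt301D1 at -1.75 and GstD4 at -1.35.

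The remaining genes of the highest and lowest ratios belong to no single group. Mrp4, an ABC transporter gene, had 12713 counts in Glioma, against 1009 in Control (3.81), Ag5r, a secreted venom-allergen-like protein gene, 78945 in Glioma against 8797 in Control (3.32), and eloF, a fatty acid elongase gene, 101 in Glioma against 3 in Control (4.99). The transcription factor gene slbo had 14 counts in Glioma, against 823 in Control (-5.67), and the serpin gene Spn100A 413 in Glioma against 7994 in Control (-4.12). CG11300, a gene known by a clone number, was among the 10 genes with the most counts in Glioma, with 196137 there and 30202 in Control (2.85). Chosen after their values were seen, CG7924 had 39 counts in Glioma and 28590 in Control (-9.35), and CG13135 had 1275 in Glioma and 37 in Control (5.24).

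Calls were not spread evenly over levels or chromosomes. Among the 167 genes with a mean above 1000 CPM 37 were higher and 10 lower, and among the 1096 genes under 1 CPM 236 were higher and 132 lower. Between 10 and 100 CPM 5.87% were higher and 3.66% lower. Chromosome arm 2R had 11.7% of its genes higher and 4.57% lower, and the X had 7.29% higher and 4.50% lower. The 97 detected genes of chromosome 4 had a median of -0.23, with 5 higher and 7 lower. Protein-coding genes known by clone numbers were higher in 13.8% of 4269, and named genes in 7.60% of 6393. There were 20 runs of at least 4 neighbouring genes called the same way, 18 higher and 2 lower, covering 91 genes. Besides those above they include the acyl-CoA-binding genes Acbp4, Acbp6, Acbp3 and Acbp2 on 3L from 7125905 to 7133463 and the amylase genes with their neighbours on 2R from 17108844 to 17135345.

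The other 2 libraries of the series carried the same constructs and an RNA interference construct for an ion channel, and they were not used for the comparison beyond the TMM scaling. In CPM, Drs stood at 4348 in Glioma, 116 with Ca-alpha1T RNAi, 596 with slo RNAi and 2.34 in Control. Glue gene Sgs3 stood at 180 CPM in Glioma, 92.4 with Ca-alpha1T RNAi, 2019 with slo RNAi and 6796 in Control. The e gene stood at 2.46 CPM in Glioma, 104 with Ca-alpha1T RNAi, 1.46 with slo RNAi and 734 in Control. These genes thus differed widely among the 3 libraries with the constructs. Mhc stood at 8497 CPM in Glioma, 3116 with Ca-alpha1T RNAi, 4580 with slo RNAi and 2181 in Control. For Jon25Biii the levels were 1287 CPM in Glioma, 212 with Ca-alpha1T RNAi, 38.2 with slo RNAi and 70.3 in Control. The barrier genes moody and Mdr65 were above Control in all 3, moody at 174 CPM in Glioma, 129 with Ca-alpha1T RNAi, 140 with slo RNAi and 25.996 in Control. Mdr65 stood at 140 CPM in Glioma, 71.9 with Ca-alpha1T RNAi, 123 with slo RNAi and 21.8 in Control.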

How the data were processed

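Poly-A RNA of larval heads had been sequenced as 4 libraries, 1 per group, of which Glioma and Control are compared. Read counts per gene are the authors' deposited values, whole numbers per the file headers. FPKM and TPM per library were likewise made by the authors, as the deposited headers say, and the authors' signed fold values, p-values and adjusted p-values are deposited beside them. Per the submitters' processing notes, HISAT2 2.1.0, StringTie 2.1.3b, edgeR, Trimmomatic 0.38 and FastQC 0.11.7 were used with the build dm6, in no stated roles. The kit marks strand, per the labels' protocols, and the sources used here do not say whether counting used it, so overlapping and antisense genes may share reads. Every listed gene has at least 1 count in each of the 4 libraries, so genes at 0 in any library are not analysed here.

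Counts were scaled by TMM over 4 libraries (edgeR 4.0.16, R 4.3.3). Log2 ratios used a prior count of 0.5, and intervals are exact conditional binomial 95% intervals (Python 3.11.15, scipy 1.17.1), which cover counting error only. A call needed 2-fold, an interval leaving out equality and 10 counts in 1 or both libraries. The calculation was tested on simulated data. Symbols are those of the files, and positions come from the RefSeq table of the same assembly, which held 11876 of the 11880 identifiers. Alternatives were DESeq2 1.42.0 size factors, total counts, TMM of the 2 libraries, no count minimum, a minimum of 50, a prior of 5, and 4-fold. FPKM and TPM were also used, with a pseudocount of 1 and no counting interval.

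Lists and members were chosen with earlier results of these data known. The rule for symbols and the limit of the respiratory chain list to nuclear genes were settled after values had been seen. Named genes are the construct and marker genes, the 15 called genes of each direction with the interval bound farthest from 0, all detected members of lists of up to 15 genes, in longer lists the 6 of largest ratio and the 3 most abundant, the 10 most abundant genes of each library, and members of runs of at least 4 genes. The number of sample columns left unmapped was 0.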

Additional observations from a re-analysis of the deposited data

How the results depend on the processing

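With 1 library per group, differences between larvae, dissections or library preparations cannot be told apart from differences between genotypes, and low counts widen the intervals. Of the genes called higher 130 had under 10 counts in Control, and of those called lower 106 had under 10 in Glioma. No paired analysis was possible because each group has 1 library and the labels carry no replicate numbers. DESeq2 size factors gave the same 1152 genes higher and 663 lower. Total counts gave 1024 genes lower. The authors' FPKM gave 496 genes higher, their TPM 510, and 4-fold 315 higher and 192 lower, fewer by construction. The median of all genes was -0.22 on total counts, -0.0091 with a minimum of 50 counts, -0.19 on FPKM and -0.26 on TPM. On total counts, medians of the neuroblast, respiratory chain and proteasome lists were -0.84, 0.52 and -0.52. On FPKM, list medians were -0.16 for barrier and septate junction, 0.44 for odorant-binding protein, 0.50 for Cpr cuticle, 0.75 for glycolysis, 0.51 for respiratory chain and -0.54 for proteasome. On TPM they were -0.22 for barrier and septate junction, 0.45 for odorant-binding protein, 0.69 for glycolysis, 0.44 for respiratory chain and -0.60 for proteasome. Of 80 list medians, 19 fell below 0 on total counts, 20 on FPKM and 25 on TPM, all from values of at most 0.33 with TMM. Glial identity, at 0.04, was at -0.18 on total counts, and barrier and septate junction, at 0.10, at -0.13. On TPM neuropeptides were at -0.012 and mitochondrial ribosomal proteins at -0.025; the cause of the FPKM and TPM shifts was not tested. At 2-fold and an adjusted p under 0.05, 1106 genes are higher and 603 lower in the authors' deposited table, and 1088 and 603 of them have the same call here, from the same single libraries.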

Other observations

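Of 308 long noncoding RNA genes 44 were higher (14.3%) and 52 lower (16.9%), and of 191 antisense RNA genes 22 were higher (11.5%) and 24 lower (12.6%). Of 114 small nucleolar RNA genes 3 were higher (2.63%) and 7 lower (6.14%). Over all detected genes 10.1% were higher and 5.81% lower, and among genes of any kind under 1 CPM 21.5% were higher and 12.0% lower. Of the 46 antisense genes called, 43 overlap a protein-coding gene. In 9 of them an overlapping gene was called the same way, as for asRNA:CR42860, with 854 counts in Glioma and 209 in Control (log2 ratio 2.18), inside the titin-like gene sls (1.59). In 2 it was called the other way, and asRNA:CR45371, with 13 counts in Glioma and 379 in Control (-4.66), was the lower of these, over CG14273 at 2.34. These RNAs were picked after their values were seen, and since the strand of counting is not known here, their reads may belong to the overlapping gene.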
